A study of Mus musculus with 4 samples.

Results

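The genes described here encode the synaptic vesicle and release machinery: synaptotagmins, syntaxins and their binding proteins, SNAP and VAMP proteins, synapsins, SV2 proteins, complexins, RAB3 proteins, synaptophysin and UNC13 proteins. They were chosen by symbol alone, by a pattern for these families matched to the series' probe table. The pattern found 62 probes for 61 genes, of 16383 genes read on each array. RNA labelled as dorsal raphe nucleus, the midbrain and pontine nucleus that supplies most serotonin to the forebrain, was read on 4 single-colour arrays. A pool of 5 mice, all males of C57BL/6J background and 10 weeks old, supplied the RNA of each array. The non-stressed WT pool was left unstressed, and 3 stressed pools (WT, D2R-KO and D2LR-KO) swam for 6 min on each of 4 days and were dissected 12 h after the last swim. D2R-KO mice lack the dopamine D2 receptor, and D2LR-KO mice lack its long form. How either allele was made is not stated in these sources, and no non-stressed knockout sample was analysed here, so comparisons of a knockout with non-stressed WT change stress and genotype at once. The series asked which genes differ after repeated forced swimming in each genotype.

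Neurotransmitter is released when a SNARE protein on the vesicle (a VAMP, or synaptobrevin) zips together with SNAREs of the plasma membrane (a syntaxin and a SNAP protein). Munc18 and UNC13 proteins prepare that assembly, complexins clamp it, and synaptotagmins trigger fusion when calcium enters. Synapsins tether the reserve vesicles, RAB3 proteins mark vesicles for docking, and synaptophysin and SV2 proteins are abundant proteins of the vesicle membrane. Other syntaxins and VAMPs of the same families serve the endoplasmic reticulum, Golgi and endosomes of every cell. In the raphe, serotonergic neurons and their glutamatergic and GABAergic neighbours all use this machinery.

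With 1 array per group there was no replicate error and no test. The limit for a difference was 1.5-fold (0.58 on the log2 scale), in genes above the blank spots on at least 1 of the arrays compared. Fold values are on the normalized log2(signal + 50) scale, which understates differences of dim genes, and the deposited intensities (linear, array median 25) are given beside them. Where 4 intensities or sums follow each other without array names, the WT arrays come first (non-stressed, then stressed), followed by D2R-KO and D2LR-KO, and 3 folds without names are those of the stressed groups against non-stressed WT in that order. The SD of the log2 difference between 2 arrays over 48 bright positive-control spots was 0.10 to 0.20, which covers spots and not mice or labelling. The stressed WT array stood apart from the rest: it correlated at r = 0.957 to 0.965 with the others across genes detected on at least 1 array, against 0.990 to 0.994 among those 3. Its upper quartile of deposited intensity was 99.6, against 115.0 to 122.7. Some bright genes, Syt1 and Sv2a among them, were below non-stressed WT there in deposited intensity. After quantile normalization their folds in stressed WT were positive (0.17 and 0.24), so intensities and folds can differ in direction on that array. Of the 61 genes, 59 were above the blank-spot limit on all 4 arrays, and Cplx3 and Cplx4 passed it on a single array each.

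Promoter windows, from 250 bases before to 50 after a RefSeq transcript start (GRCm38.p6), were found for 48 of the 61 genes, 63 windows in all. Snap25 and Syt17 were among the genes without a window. The windows of Cplx1, Cplx2, Stx1a and Syn2 are shown because these 4 genes had a window and enter the comparisons below. Cplx2 was lower on every stressed array while Cplx1 was not counted as different, with D2R-KO just short of 1.5-fold. Stx1a stood highest on the stressed WT array and Syn2 lowest on the D2LR-KO array. Capitals mark matches to GGGCGG (the GC box core) on either strand. No match to the 5 other motifs searched on both strands, which are spelled out after the windows, was found in these 4.
Cplx1, chr5:108549978-108550277, minus strand: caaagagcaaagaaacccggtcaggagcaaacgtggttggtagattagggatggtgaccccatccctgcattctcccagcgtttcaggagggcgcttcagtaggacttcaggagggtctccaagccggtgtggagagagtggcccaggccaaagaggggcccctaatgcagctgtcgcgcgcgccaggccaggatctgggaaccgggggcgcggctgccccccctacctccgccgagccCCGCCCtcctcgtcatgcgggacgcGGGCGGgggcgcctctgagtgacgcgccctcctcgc
Cplx2, chr13:54302306-54302605, plus strand: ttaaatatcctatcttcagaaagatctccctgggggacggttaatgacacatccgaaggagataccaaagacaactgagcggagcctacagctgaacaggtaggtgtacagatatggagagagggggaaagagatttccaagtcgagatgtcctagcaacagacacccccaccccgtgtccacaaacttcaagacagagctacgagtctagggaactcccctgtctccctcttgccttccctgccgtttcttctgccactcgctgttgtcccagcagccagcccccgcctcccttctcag
Stx1a, chr5:135023232-135023531, plus strand: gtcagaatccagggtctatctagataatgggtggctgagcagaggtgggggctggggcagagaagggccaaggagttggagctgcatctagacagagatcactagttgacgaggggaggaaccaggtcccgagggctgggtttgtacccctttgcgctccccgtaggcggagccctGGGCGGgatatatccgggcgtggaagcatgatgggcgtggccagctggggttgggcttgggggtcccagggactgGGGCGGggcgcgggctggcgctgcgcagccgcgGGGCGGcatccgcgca
Syn2, chr6:115134652-115134951, plus strand: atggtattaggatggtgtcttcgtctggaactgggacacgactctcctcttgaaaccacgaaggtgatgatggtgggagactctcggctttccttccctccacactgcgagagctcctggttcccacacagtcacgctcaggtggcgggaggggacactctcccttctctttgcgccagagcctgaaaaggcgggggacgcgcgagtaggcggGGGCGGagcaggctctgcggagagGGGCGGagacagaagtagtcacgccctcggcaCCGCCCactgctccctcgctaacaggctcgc

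The Cplx1 window held 2 GGGCGG matches, those of Stx1a and Syn2 held 3 each, and that of Cplx2 held 0. A second Syn2 window, at a start further downstream, also held 0. Of the 63 windows 65.1% held GGGCGG, against 35.7% of all 32851 windows, and the median GC content was 62.0% against 52.7%. The cAMP response element TGACGTCA was in 1.59% of these windows and in 1.79% of all, and the E-box CACGTG in 14.3% and 7.15%. TTCAGCAC, a piece of the site of the neuronal repressor REST, was in the Syn1 and Unc13a windows alone among these genes (3.17% of windows, against 1.17% of all). GGACAG was in 19.0% against 22.2%, and TATAAA in 6.35% against 13.6%. These matches describe the sequence only.

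Of the 61 genes, 42 stayed within 1.5-fold in all 6 comparisons (68.9%, against 76.3% of all genes), and the median span over the 4 arrays was 0.42 on the log2 scale, against 0.30 for all genes. In any comparison, 8 (Snap25, Stx1a, Stx8, Stxbp3a, Syn2, Syt17, Unc13d and Vamp8) reached 2-fold. The share of all genes that did so was not counted, so whether 8 is many is not known here. Dim probes had little room to differ on this scale, and 17 of 18 genes below the array median on every array were among the 42. In stressed WT against non-stressed WT, 4 of 60 genes compared were higher (6.67%, against 7.27% of all genes) and 5 lower (8.33%, against 8.12% of all genes). The median over the 60 was 0.00 on the log2 scale, as it was over all genes. That match depended on the processing. With median scaling the median was -0.22, against 0.00 for all genes, and in the values as deposited -0.23, against -0.06. In D2R-KO against non-stressed WT, 1 of 60 was higher (1.67%, against 0.577% of all genes) and 3 lower (5.00%, against 1.49%), with a median of 0.01. In D2LR-KO against non-stressed WT, 1 of 59 was higher (1.69%, against 0.745%) and 3 lower (5.08%, against 1.41%), with a median of -0.04. These counts of 1 and 3 are small, and the 3 comparisons share the non-stressed WT array. Under median scaling, in which no quantile step is applied, the counts higher and lower were 2 and 10 for stressed WT (2.69% and 16.5% of all genes). They were 2 and 3 for D2R-KO (0.865% and 1.57% of all genes), and 0 and 8 for D2LR-KO (0.347% and 2.90% of all genes).

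**Figure D1:**
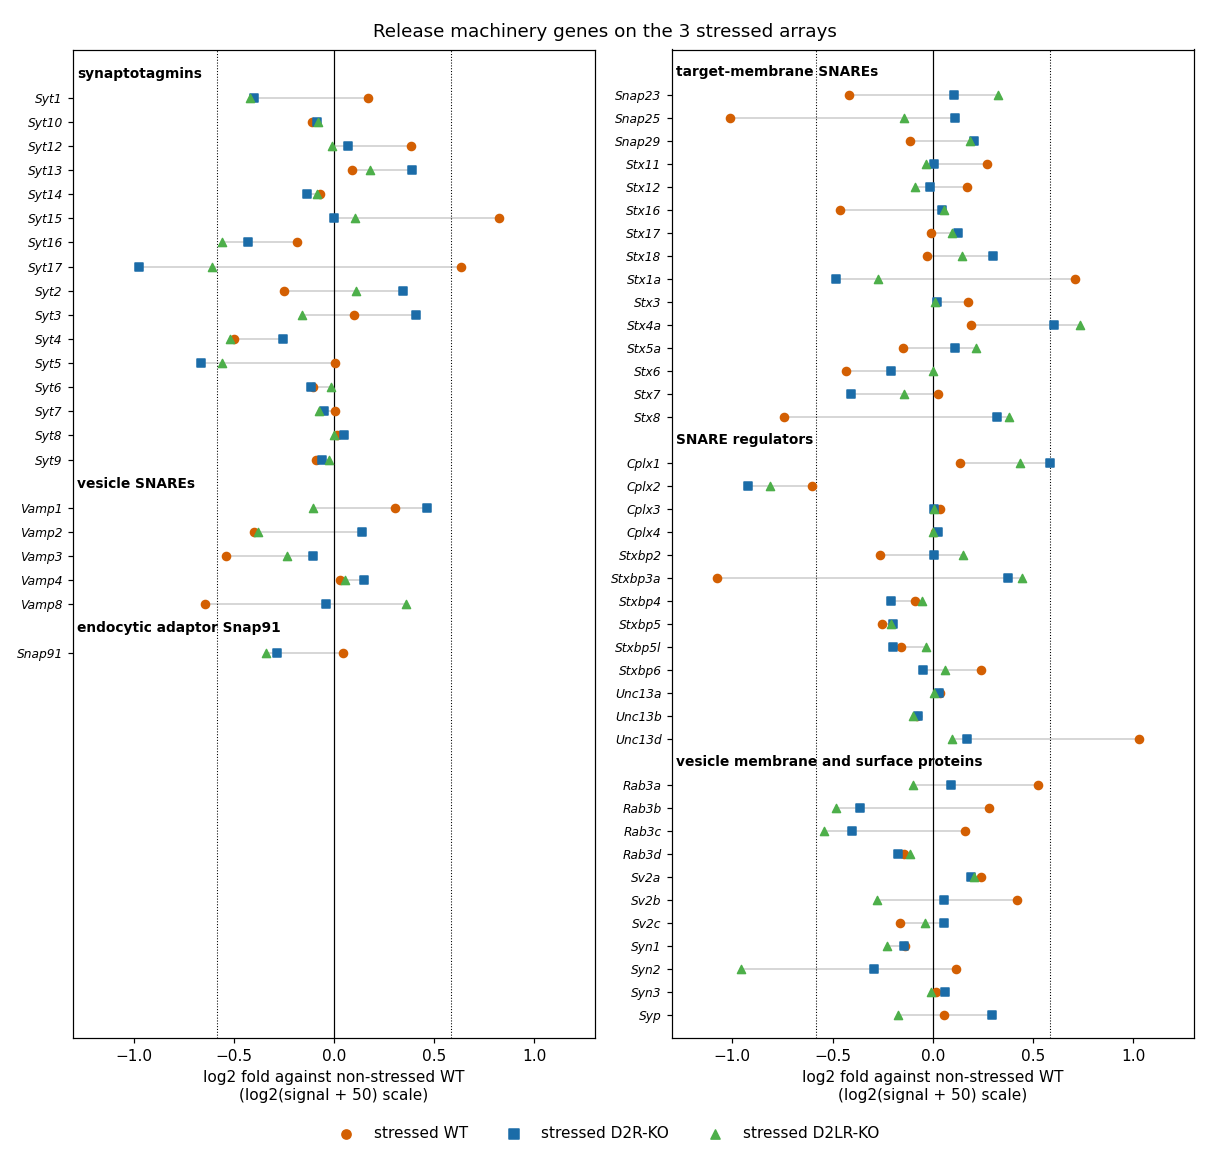
The log2 fold of each of the 61 genes (1 line per gene, grouped by role) on the arrays of the 3 stressed groups (WT, D2R-KO, D2LR-KO) against the non-stressed WT array, 1 array per group, with dotted lines at 1.5-fold. Most points lie between the dotted lines, and the points beyond them at the far left include Stxbp3a and Snap25 in stressed WT (-1.08 and -1.01) and Syt17 in D2R-KO (-0.97).

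Among the 16 synaptotagmins, 2 were higher in stressed WT and 2 were lower in D2R-KO against non-stressed WT, and Syt17 was in both counts. Syt1, the main calcium sensor of fast release in forebrain neurons, gave deposited intensities of 2117.3 and 1942.5 on the WT arrays (non-stressed, then stressed) and 1917.4 and 1716.8 on the knockouts (D2R-KO, then D2LR-KO). Both knockout arrays were below both WT arrays, and its folds against non-stressed WT were 0.17, -0.40 and -0.42 for stressed WT, D2R-KO and D2LR-KO. Syt2, the fast sensor common in brainstem and spinal neurons, had 12.9, 7.1, 24.3 and 16.1 in the same order of arrays. It was low on all 4 arrays, highest in D2R-KO, and past 1.5-fold only in D2R-KO against stressed WT (0.59).

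Syt17, which encodes a C2-domain protein without the membrane anchor of other synaptotagmins, gave intensities of 322.7 and 409.3 on the WT arrays (non-stressed, then stressed) and 160.4 and 201.4 on the knockouts (D2R-KO, then D2LR-KO). Both knockouts were below both WT arrays, as they were for 19.5% of all genes. Syt17 alone of the 61 genes did so with a gap of at least 1.5-fold (0.61 between the nearest arrays), not counted over all genes. Its folds against non-stressed WT were 0.63 for stressed WT, -0.97 for D2R-KO and -0.61 for D2LR-KO, and the last was 0.61, of opposite sign, when local background was used (the intensity around each spot). The stressed WT value fell short of the limit with median scaling (0.12) and in the values as deposited (0.34). Syt5 had 102.3, 89.1, 55.5 and 59.3, again with both knockouts below both WT arrays. It was 1.58-fold lower in D2R-KO and 1.47-fold lower in D2LR-KO than in non-stressed WT, and its fold in stressed WT was 0.01.

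Syt15 had 29.6, 66.6, 29.8 and 33.6, so the stressed WT array stood above the other 3, at 1.77-fold over non-stressed WT. Syt4, a synaptotagmin of dense-core vesicles that responds to neuronal activity, had 891.5, 496.6, 855.6 and 643.5. Its folds of -0.50, -0.26 and -0.52 were all within 1.5-fold. Syt3, Syt12, Syt13 and Syt16 had folds between -0.56 and 0.41 against non-stressed WT. The remaining synaptotagmins (Syt6, Syt7, Syt8, Syt9, Syt10 and Syt14) were below 11 in deposited intensity on every array, and none exceeded 0.14 in size. At that brightness a difference would have been hard to see.

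Among 15 syntaxin and SNAP genes of target membranes, Snap25 differed most from non-stressed WT. Snap25, the plasma membrane SNARE of neurons and of endocrine cells, gave intensities of 4991.0 and 2019.1 on the WT arrays (non-stressed, then stressed) and 6393.9 and 5015.9 on the knockouts (D2R-KO, then D2LR-KO). The stressed WT array was low and the other 3 lay together. Snap25 was 2.02-fold lower in stressed than in non-stressed WT, 2.18-fold higher in D2R-KO than in stressed WT and 1.82-fold higher in D2LR-KO than in stressed WT, and each of these 3 differences stayed past 1.5-fold in the same direction under all 4 alternatives that change a value. In these bulk samples, fewer cells of a type and less RNA per cell cannot be told apart. Its relative Snap23, used outside neurons, had 73.4, 44.4, 86.7 and 98.6 and was 1.67-fold higher in D2LR-KO than in stressed WT.

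Stx1a, the syntaxin partner of Snap25 in neurons, ran the other way on the stressed WT array. It had 128.4 and 188.5 on the WT arrays (non-stressed, then stressed) and 88.6 and 100.2 on the knockouts (D2R-KO, then D2LR-KO). Stressed WT was highest and both knockouts were below both WT arrays. Stx1a was 1.64-fold higher in stressed than in non-stressed WT, short of the limit with median scaling (0.30) and in the values as deposited (0.55). Against stressed WT it was 2.29-fold lower in D2R-KO and 1.98-fold lower in D2LR-KO. Stx8, a SNARE of late endosomes, had 317.5, 149.3, 450.7 and 428.2, lowest in stressed WT. It was 1.67-fold lower in stressed than in non-stressed WT, but 1.27 higher on the log2 scale with the background around each spot. Against stressed WT it was 1.06 higher in D2R-KO and 1.12 in D2LR-KO, the latter turning to -0.18 in that setting.

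Stx4a, a plasma membrane syntaxin of many cell types, had 371.6 and 341.2 on the WT arrays (non-stressed, then stressed) and 647.6 and 659.5 on the knockouts (D2R-KO, then D2LR-KO). Both knockouts were above both WT arrays. It was the sole gene of the 61 counted as higher in either knockout against non-stressed WT (1.52-fold in D2R-KO and 1.66-fold in D2LR-KO, the latter 0.55 on the log2 scale with median scaling). Cplx1 in D2R-KO fell just short of being counted. The syntaxins of the secretory pathway, endosomes and autophagy (Stx5a, Stx6, Stx7, Stx12, Stx16, Stx17 and Stx18) had folds between -0.46 and 0.30 against non-stressed WT. None of them was past 1.5-fold in any comparison. Snap29, a ubiquitous SNAP protein, had folds of -0.12, 0.20 and 0.19. Stx3 and Stx11 had folds of 0.17 and 0.27 in stressed WT and at most 0.03 in size in the knockouts.

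Of 5 vesicle SNAREs, 1 was lower in stressed WT and none was past the limit in either knockout, and their median fold was -0.40 for stressed WT, 0.14 for D2R-KO and -0.10 for D2LR-KO. The medians of all genes were 0.00 to 0.01. Vamp2, synaptobrevin of most central synapses, had 213.7 and 132.1 on the WT arrays (non-stressed, then stressed) and 265.2 and 159.1 on the knockouts (D2R-KO, then D2LR-KO). Vamp1, the synaptobrevin prominent in brainstem and spinal cord, had 459.0, 456.6, 729.7 and 433.0. Both were brightest in D2R-KO, and D2LR-KO lay below D2R-KO by 0.57 for Vamp1 and 0.52 for Vamp2, each just under 1.5-fold. Vamp8, an endosomal SNARE of many cell types, had 171.9, 86.0, 180.1 and 231.4. It was 1.57-fold lower in stressed than in non-stressed WT and 2.01-fold higher in D2LR-KO than in stressed WT. Vamp3, of recycling endosomes, was at -0.54 in stressed WT, and Vamp4, of the trans-Golgi network, stayed between 0.03 and 0.15 in all 3 stressed groups.

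Of the 13 regulators of SNARE assembly, Cplx2 was lower than non-stressed WT on every stressed array. Cplx2, the complexin prominent in forebrain excitatory neurons, had 997.2 and 504.6 on the WT arrays (non-stressed, then stressed) and 570.3 and 561.4 on the knockouts (D2R-KO, then D2LR-KO). The non-stressed array was high and the 3 stressed arrays lay together, and Cplx2 was the single gene of the 61 for which the non-stressed WT array was highest by at least 1.5-fold (0.340% of all genes). It was lower 1.52-fold for stressed WT, 1.89-fold for D2R-KO and 1.76-fold for D2LR-KO, and each of these stayed past 1.5-fold under every alternative that changes a value. Cplx1, the complexin prominent in brainstem and in inhibitory neurons, had 1578.9, 1344.1, 2717.0 and 2249.7. Both knockouts were above both WT arrays. Its folds against non-stressed WT were 0.14 in stressed WT, 0.58 in D2R-KO, just short of the limit, and 0.43 in D2LR-KO. The D2R-KO value was 1.5-fold as rounded, and in deposited intensity (2717.0 against 1578.9) the difference was past 1.5-fold. Cplx3 and Cplx4, complexins of retinal ribbon synapses, were at or near the blank spots.

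Stxbp3a, a Munc18 family protein that works with Stx4a outside the synapse, had 161.7 and 54.9 on the WT arrays (non-stressed, then stressed) and 241.3 and 234.9 on the knockouts (D2R-KO, then D2LR-KO). It was lowest in stressed WT, 2.11-fold below non-stressed WT, and the knockouts were 2.74-fold (D2R-KO) and 2.88-fold (D2LR-KO) above stressed WT. Unc13d, the UNC13 protein of blood cell granules, had 22.2, 67.8, 29.2 and 25.6, so stressed WT was highest and 2.04-fold above non-stressed WT, though short of the limit with local background (0.40 on the log2 scale). Unc13a and Unc13b, the neuronal members that prime vesicles, were dim (6.0 to 7.8 and 12.2 to 15.2) with folds of at most 0.10 in size against non-stressed WT. Stxbp4, the gene with 2 probes, had folds of -0.09 and -0.43 in stressed WT, and both probes stayed within 1.5-fold in every comparison. Stxbp5 and Stxbp5l (tomosyns, which compete for syntaxin), Stxbp6 (amisyn) and Stxbp2 had folds between -0.27 and 0.24 against non-stressed WT.

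**Figure D2:**
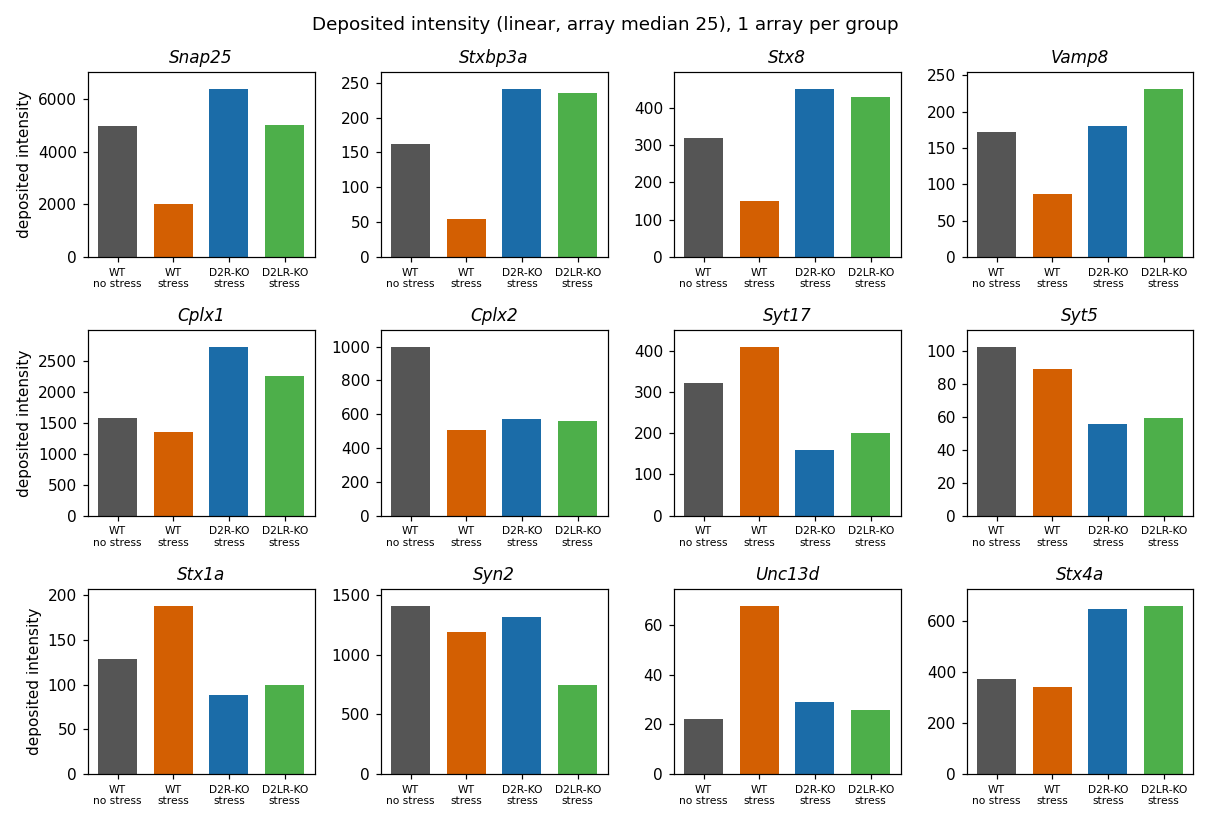
Deposited intensity (linear, array median 25) of 12 of the genes on the 4 arrays, 1 bar per array, each panel with its own axis from 0. Snap25, Stxbp3a, Stx8 and Vamp8 have their lowest bar in stressed WT, Syt17, Stx1a and Unc13d their highest, and Cplx1 and Stx4a are higher in both knockouts than in both WT arrays.

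None of the 11 genes for vesicle membrane and surface proteins was counted in stressed WT or D2R-KO against non-stressed WT, and 1 was lower in D2LR-KO. That gene was Syn2, a synapsin, with 1413.2 and 1192.3 on the WT arrays (non-stressed, then stressed) and 1321.6 and 745.3 on the knockouts (D2R-KO, then D2LR-KO). The D2LR-KO array stood below the other 3. Syn2 was 1.94-fold lower than in non-stressed WT, though at 0.067 on the log2 scale with the background around each spot, and 2.10-fold lower than in stressed WT. Against D2R-KO it was lower by 0.66 on the log2 scale, and no other gene of the 61 passed 1.5-fold between the knockouts (1 of 60 lower, 1.67%, against 0.333% of all genes, and 0 higher, against 0.660%). That difference stayed past 1.5-fold under every alternative that changes a value, while median scaling counted 0 genes higher and 6 lower between the knockouts (0.417% and 2.02% of all genes). Syn1 was dim, with 23.1, 18.8, 18.1 and 15.4, and its folds were -0.14, -0.14 and -0.23. Syn3 was dim too, between 3.5 and 5.1.

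Syp, synaptophysin, had 151.4 and 134.3 on the WT arrays (non-stressed, then stressed) and 210.4 and 132.2 on the knockouts (D2R-KO, then D2LR-KO). D2R-KO was brightest, but all its folds were within 1.5-fold (0.29 in D2R-KO against non-stressed WT, -0.47 in D2LR-KO against D2R-KO). Sv2a, the target of the antiepileptic drug levetiracetam, had 264.3, 256.3, 340.6 and 317.4, with folds of 0.24, 0.19 and 0.21 against non-stressed WT. The stressed WT fold was positive although its deposited intensity was the lowest. Sv2b had 510.3, 549.4, 602.8 and 423.4 and was 0.70 lower in D2LR-KO than in stressed WT on the log2 scale (-0.38 with median scaling). Sv2c was dim, between 2.4 and 7.0.

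Rab3a, the most studied RAB3 protein of synaptic vesicles, had 838.2 and 947.2 on the WT arrays (non-stressed, then stressed) and 1025.1 and 811.3 on the knockouts (D2R-KO, then D2LR-KO). Its folds of 0.52, 0.09 and -0.10 against non-stressed WT were within 1.5-fold. Rab3b had 138.7, 147.3, 107.4 and 89.4, and Rab3c 954.7, 833.0, 819.0 and 674.1, with both knockouts below both WT arrays for each. Against stressed WT, D2LR-KO was lower by 0.62 for Rab3a, 0.76 for Rab3b and 0.70 for Rab3c, but Rab3c was higher by 0.59 when local background was used. Rab3d, found mainly in secretory cells, lay between 20.4 and 26.8.

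Set against stressed WT, the knockouts differed in more genes, as the whole arrays did. In D2R-KO 5 of 61 genes were higher (8.20%, against 9.33% of all genes) and 6 lower (9.84%, against 8.64%). The higher genes were Snap25, Stx8, Stxbp3a, Syt2 and Vamp8, and the lower ones Rab3b, Stx1a, Syt5, Syt15, Syt17 and Unc13d. In D2LR-KO 5 of 60 were higher (8.33%, against 8.72%), namely Snap23, Snap25, Stx8, Stxbp3a and Vamp8. There 10 were lower (16.7%, against 8.20%): Rab3a, Rab3b, Rab3c, Stx1a, Sv2b, Syn2, Syt1, Syt15, Syt17 and Unc13d. Of these 10, 5 were among the 11 vesicle membrane and surface genes (Rab3a, Rab3b, Rab3c, Sv2b and Syn2). With median scaling Syn2 alone of these 5 stayed past 1.5-fold. With median scaling the counts were 14 higher and 4 lower in D2R-KO (18.5% and 3.76% of all genes), and 7 higher and 5 lower in D2LR-KO (12.0% and 4.35% of all genes). Snap25, Stxbp3a, Vamp8, Stx1a, Syt15 and Syt17 stayed past 1.5-fold in both knockouts, and Syn2 in D2LR-KO, under all 4 alternatives that change a value, and the other genes named here fell short of 1.5-fold or turned in at least 1 of them. In the deposited values the median of all genes for D2R-KO against stressed WT was 0.11, against -0.01 after quantile normalization. The median of the genes described here was 0.13 in the deposited values, against 0.001 after quantile normalization. With median scaling it was 0.13, against 0.004 for all genes. Syt17 was 3.04-fold lower in D2R-KO and 2.37-fold lower in D2LR-KO than in stressed WT.

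The comparisons share arrays with each other, so a gene extreme on a single array enters several of them. The stressed WT array was lowest of the 4 by at least 1.5-fold for Snap25, Stx8, Stxbp3a and Vamp8 (6.56% of the 61 genes, against 5.42% of all genes). It was highest by that margin for Stx1a, Syt15, Syt17 and Unc13d (6.56%, against 5.32%). The D2LR-KO array was lowest by that margin for Syn2 (1.64%, against 0.0378% of all genes), and 0 genes of the 61 were highest there (0.227% of all genes). On the D2R-KO array 0 genes of the 61 were lowest (0.0819% of all genes) or highest (0.0756%) by that margin. By any margin, D2LR-KO was the lowest of the 4 arrays for 21 of the 61 genes (34.4%, against 19.3% of all genes). Both knockouts lay above both WT arrays for 14 of the 61 genes (23.0%, against 19.8% of all genes) and below them for 15 (24.6%, against 19.5%).

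Pairs of related genes that serve the same step did not always move alike. Across the complexins, the fold of Cplx1 exceeded that of Cplx2, against non-stressed WT, by 0.74 for stressed WT, 1.51 for D2R-KO and 1.25 for D2LR-KO. Those gaps were positive in all 4 alternatives that change a value (0.71 to 1.56, 1.54 to 2.24 and 1.28 to 1.70). For the fast calcium sensors, the fold of Syt1 lay below that of Syt2 by 0.74 in D2R-KO and 0.53 in D2LR-KO, and above it by 0.42 in stressed WT, which turned to -0.17 with median scaling. With local background the gaps in D2R-KO and D2LR-KO were -0.11 and -0.07. Vamp1 exceeded Vamp2 by 0.71 in stressed WT (-0.04 with local background), by 0.32 in D2R-KO and by 0.28 in D2LR-KO (-0.91 with local background). Syn1 minus Syn2 was -0.26 in stressed WT (0.32 with median scaling), 0.15 in D2R-KO (-0.78 with local background) and 0.73 in D2LR-KO (-0.05 with local background). In the values as deposited it was -0.052, -0.255 and 0.338 in the same order. Rab3a exceeded Rab3b by 0.24 to 0.45 and Rab3c by 0.36 to 0.49 over the 3 stressed groups. In stressed WT the first gap was 0.049 with median scaling and 2.16 with local background, and the second 2.60 with local background. Sv2a minus Sv2b was -0.18 in stressed WT, 0.13 in D2R-KO (-0.37 with the background around each spot) and 0.48 in D2LR-KO. Sv2a minus Sv2c was 0.14 to 0.41, with a turned sign in at least 1 setting for each stressed group. Syt2, Syn1 and Sv2c were below the array median on every array, so their own folds had little room to differ on this scale. The gaps of those pairs do not show whether the 2 genes of a pair moved differently. Each probe was compared with itself across arrays, and no level was set against that of another probe.

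**Figure D3:**
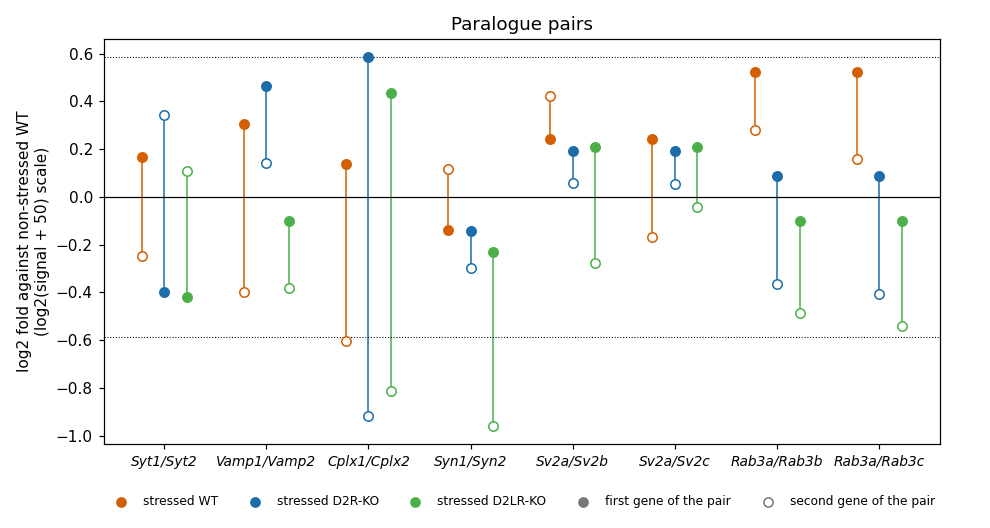
The log2 fold against non-stressed WT of the first (filled) and second (open) gene of 8 paralogue pairs on the 3 stressed arrays, with dotted lines at 1.5-fold. The complexin pair is the widest in both knockouts, with Cplx1 at 0.58 and 0.43 and Cplx2 at -0.92 and -0.81.

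Markers of the tissue were read on the same arrays. Tph2, the enzyme of neuronal serotonin synthesis, had 31.4 and 10.7 on the WT arrays (non-stressed, then stressed) and 264.6 and 151.5 on the knockouts (D2R-KO, then D2LR-KO), and Slc6a4, the serotonin transporter, 11.6, 6.8, 89.6 and 43.5. These 2 defining markers of serotonergic neurons were therefore low on both WT arrays. Of 9 serotonergic markers measured, 4 were higher in D2R-KO and 3 in D2LR-KO than in non-stressed WT. Of all genes, 0.577% and 0.745% were higher there and 1.49% and 1.41% lower. The summed deposited intensity of the 9 was 2638, 2200, 3760 and 3952. Most of it was Ddc (1562.6, 1119.0, 1735.3 and 2253.8) and Slc18a2 (702.5, 718.1, 1197.8 and 1132.7). Ddc and Gch1 alone of the 9 had a higher deposited intensity in D2LR-KO than in D2R-KO, and Slc18a2 was higher by 0.04 on the normalized log2 scale. Of 10 forebrain excitatory neuron markers, 8 were lower in D2R-KO and 7 in D2LR-KO (medians -1.13 and -1.11), and their sum was 6915, 7743, 2444 and 2490. Of 11 pons and medulla markers, 5 were higher in D2R-KO, and 4 were higher and 1 lower in D2LR-KO, with sums of 1117, 1300, 2353 and 1676. In stressed WT 2 forebrain markers were higher (Hpca and Nrgn) and 1 lower (median 0.13), 1 pons and medulla marker was higher and 2 lower (Hoxa5 and Hoxb5), and 1 serotonergic marker, Tph2, was lower (-0.63). Cplx2 was lower on all 3 stressed arrays, and the forebrain markers on the knockout arrays. The part of tissue makeup in these differences was not tested.

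Of 11 pan-neuronal markers, 1 was higher and 1 lower in stressed WT, 1 was higher in D2R-KO and none differed in D2LR-KO (medians -0.08, 0.20 and -0.01, sums of 18289, 13180, 24414 and 17427). Uchl1 was the largest part of each sum, with 8969.3, 4702.3, 11115.5 and 8021.1. Endothelial markers were lower in stressed WT (4 of 6, sum 828, against 1923 to 2230 on the other arrays). Of all genes, 7.27% were higher and 8.12% lower in stressed WT than in non-stressed WT. Of 9 astrocyte markers, 3 were lower in stressed WT, 1 was lower in D2R-KO and none differed in D2LR-KO. Of 8 oligodendrocyte markers, 2 were higher and 2 lower in stressed WT, none in D2R-KO and 3 higher in D2LR-KO. No microglia marker of 8 passed 1.5-fold against non-stressed WT in any group. Choroid plexus markers were lower in all 3 stressed groups (6 of 7 in each, sums of 13183, 5839, 103 and 285). Ttr alone had 12884.0, 5720.2, 20.3 and 193.1 and made up most of the WT sums. Against stressed WT, Ttr was the 1 marker of 7 that was lower in either knockout. Pituitary markers were higher in D2R-KO (3 of 7 compared, against 1 lower in stressed WT and none in D2LR-KO, sum 639, against 136 to 156), with Tshb at the blank spots throughout. The part of these cells in the values above was not tested. Drd2, the targeted gene, had 26.8, 43.8, 20.9 and 48.3, and where its probe lies relative to the deleted parts is not known here.

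Other genes of the vesicle cycle, a list of 74 of which 68 could be compared, included genes past the limit in both directions. In stressed WT 6 were higher (8.82%, against 7.27% of all genes) and 6 lower (8.82%, against 8.12%). The lower genes were led by Slc17a6, the vesicular glutamate transporter of brainstem neurons (578.3, 95.0, 654.1 and 621.4, a fold of -2.14), and Ap2m1, a subunit of the endocytic AP2 adaptor (850.2, 206.7, 957.0 and 881.6, -1.64). The SNARE recycling factors Napb and Napg, which act on the same complexes as Snap25, were at -0.67 and -0.74, Lin7a at -0.85 and the vesicle proton pump subunit Atp6v1a at -0.75. The higher genes were the synucleins Sncb (0.72) and Sncg (0.80), the active zone gene Rims2 (0.63), Bin1 (0.63), Rph3a (0.61) and the presynaptic calcium channel gene Cacna1a (0.61). In D2R-KO 2 were lower, Synpr, a relative of synaptophysin (-0.96), and Amph (-0.59), and in D2LR-KO 2, Synpr (-0.75) and Atp6v1a (-0.61), with none higher in either (2.94% lower in each, against 1.49% and 1.41% of all genes). Snap91, the clathrin adaptor that the symbol pattern also picked up, had 207.3, 180.3, 178.7 and 159.2 and folds of 0.05, -0.28 and -0.34.

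**Figure D4:**
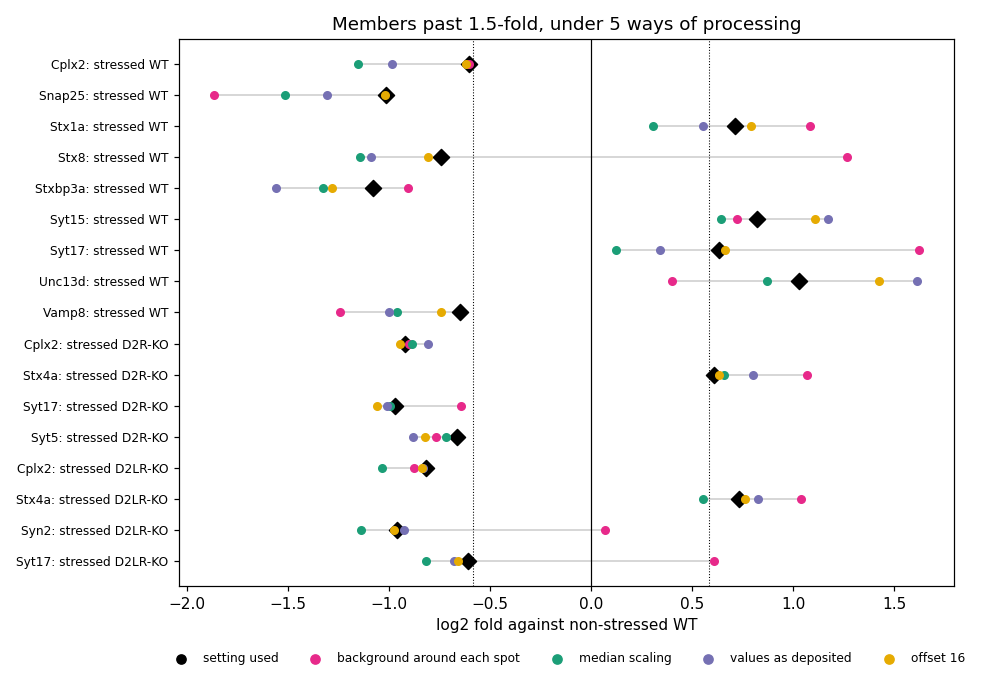
The log2 fold of the 17 differences past 1.5-fold against non-stressed WT (1 line per gene and stressed group) in the setting used (diamonds) and in 4 alternatives (circles), with dotted lines at 1.5-fold. Stx8 in stressed WT and Syn2 and Syt17 in D2LR-KO cross 0 with the background around each spot, and the 3 Cplx2 lines stay left of the line in every setting.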

How the data were processed

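Per the labels' protocols, total RNA was amplified as amino allyl aRNA and labelled with Cy5. Scans at 3 gains were made of every array, per the file headers, and each deposited scanner file holds the median intensity of every spot and around it at 635 nm, not background-subtracted. The authors' deposited value table holds linear intensity that equals the spot median minus a constant, divided by a factor, for each array. The submitters' own steps for it are not stated in these sources.

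Spot medians were corrected with normexp, using the blank spots as negative controls (nec in limma 3.58.1, R 4.3.3, offset 50), then log2-transformed and quantile-normalized over the 4 arrays. Detection meant exceeding the blank spots' mean by 2 of their SDs (38.0 to 40.3), and 91.0% to 91.6% of probes were. The submitters' probe table named 16631 probes, with 3883 older symbols updated through RefSeq (GRCm38.p6). For genes with more than 1 probe the brightest was kept, and 9 probes with an unusable spot were left out. The counts were repeated under 6 planned settings and 1 added later. The calling procedure was tested on simulated data. Python 3.11.15 with pandas 2.3.3 did the rest.

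Values on every array were given by rule for a set of core members, members past 2-fold in any comparison and members past 1.5-fold against non-stressed WT, and other members were named after their values were seen. The members, lists and rules were chosen with earlier results of these data known, and the forebrain, pons and serotonergic lists hold genes that those results had already shown.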

Additional observations from a re-analysis of the deposited data

Results flagged for a closer look

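Syt17 was picked out because its difference from non-stressed WT had opposite signs between stressed groups, each past 1.5-fold: stressed WT was at 0.63, D2R-KO at -0.97 and D2LR-KO at -0.61. The stressed WT value was 0.12 with median scaling and 0.34 in the values as deposited, both under the limit, and the D2LR-KO value turned to 0.61 with local background. With 1 array per group the difference between the groups was not tested.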

How the results depend on the processing

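The counts past 1.5-fold depended on the processing, and are given here as higher and lower, with the percent of all genes in that setting in brackets. No such percent is given for the 2-fold limit. Counts within 1.5 times of the count in the setting used are mostly left out. For stressed WT against non-stressed WT (4 and 5), the background around each spot gave 12 higher (9.88%), median scaling 2 and 10 (2.69% and 16.5%), the values as deposited 4 and 16 (22.2% and 24.6%) and a 2-fold limit 1 and 2. For D2R-KO against non-stressed WT (1 and 3), the background around each spot gave 11 and 9 (7.02% and 5.06%), median scaling 2 higher (0.865%), the values as deposited 6 and 6 (7.96% and 6.62%), an offset of 16 3 higher (1.37%), and a 2-fold limit 0 and 0. With D2LR-KO set against the non-stressed array (1 and 3), these settings gave 8 and 5 (6.94% and 4.76%), 0 and 8 (0.347% and 2.90%), 9 lower (6.82%), 5 lower (2.37%), and 0 and 0. For D2R-KO against stressed WT (5 and 6), median scaling gave 14 higher (18.5%), the values as deposited 20 higher (29.2%), an offset of 16 8 higher (14.4%) and a 2-fold limit 3 and 2. For D2LR-KO against stressed WT (5 and 10), median scaling gave 5 lower (4.35%), the values as deposited 14 higher (25.4%), an offset of 16 8 higher (13.6%) and a 2-fold limit 3 and 2. For D2LR-KO against D2R-KO (0 and 1), the background around each spot gave 3 and 5 (3.0% and 2.47%), median scaling 6 lower (2.02%), the values as deposited 7 lower (5.29%), an offset of 16 3 lower (0.615%) and a 2-fold limit 0. Leaving stressed WT out of the normalization, an alternative chosen after seeing the data, gave 2 lower there (0.378%). Requiring detection on both arrays moved none of these counts by over 1.5 times. The cause was not tested.

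Of 44 differences of single genes past 1.5-fold, 39 kept their sign in every alternative that changes a value and 24 stayed past 1.5-fold in every such one. The 5 that turned did so with the background around each spot: Stx8 in stressed WT against non-stressed WT (1.27) and in D2LR-KO against stressed WT (-0.18), Syn2 (0.067) and Syt17 (0.61) in the D2LR-KO comparison with non-stressed WT, and Rab3c in D2LR-KO against stressed WT (0.59). That background followed the spot itself (r = 0.876 to 0.958 across probes, log2 scale). The mean over both Stxbp4 probes gave -0.26 in stressed WT against non-stressed WT and stayed within 1.5-fold throughout. No paired analysis was possible because each group has 1 array. Genes near the blank spots, 18 of 61 below the array median throughout, could show little difference.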

Other observations

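The probe table lists 5 more genes of these families under older symbols, which the symbol pattern did not find, and their values were read after the rest. Vamp7, an endosomal and lysosomal SNARE, gave deposited intensities of 168.0 and 100.2 on the WT arrays (non-stressed, then stressed) and 242.2 and 206.9 on the knockouts (D2R-KO, then D2LR-KO). It was lowest in stressed WT, and against that array it was higher by 0.78 in D2R-KO and 0.69 in D2LR-KO. Snap47, a SNAP family protein, had 1784.6, 2072.9, 2262.9 and 1949.4, with folds of 0.54, 0.11 and 0.01 against non-stressed WT. Vamp5 had folds of 0.48, 0.31 and 0.27, Stx2 -0.22, 0.12 and 0.22, and Stx19 at most 0.10 in size, all within 1.5-fold.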
